A study of Mus musculus with 2 samples.

Results

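The miR-34 family comprises miR-34a-5p (MIMAT0000542), miR-34b-5p (MIMAT0000382) and miR-34c-5p (MIMAT0000381). These 3 mature miRNAs were picked out by their miRBase accessions among the 610 features of a liver miRNA array table. The choice was made with the array values known, so the family's values are given as a description and nothing is tested. The table holds 2 arrays. One array carried liver RNA of floxed control mice (Hnf4af/f), and the other carried liver RNA of mice with liver-specific loss of Hnf4a (Hnf4aΔH), called liver-null below. Hnf4a encodes a nuclear receptor on which many of the genes that make a liver cell a hepatocyte depend. All mice were 45-day-old males of a mixed 129SV + C57BL/6 background. The sources used here give neither the promoter that drove the deletion nor the number of animals behind each array. With 1 array per genotype no value has a replicate error, and every difference below compares these 2 arrays.

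The miR-34 miRNAs are direct transcriptional targets of the tumour suppressor p53. They repress messages that promote the cell cycle and survival, among them those of cyclins, cyclin-dependent kinases and Bcl2. In the liver, miR-34a is known for repressing Sirt1, which encodes a deacetylase of energy metabolism, and it has been reported to repress Hnf4a itself. In the mouse, miR-34b and miR-34c are best known from multiciliated epithelia and the testis.

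A miRNA chooses its target messages mainly through its seed, bases 2 to 8 from the 5′ end. The mature sequences are shown because the family is defined by this shared seed, written in capitals, while the bases after it are shared only in part. RefSeq's table for GRCm38.p6 held the mature sequence of 2 of the 3 members, and the miR-449 miRNAs listed after them carry the same seed.
miR-34a-5p: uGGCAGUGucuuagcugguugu
miR-34b-5p: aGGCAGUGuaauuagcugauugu
miR-449a-5p: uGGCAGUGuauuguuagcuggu
miR-449c-5p: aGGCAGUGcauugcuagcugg
Of 1679 mature mouse miRNA names in that table, these 4 (0.238%) held GGCAGUG at bases 2 to 8. The miR-34a-5p and miR-34b-5p sequences were 4 single-base edits apart, and their longest common run was 8 bases. Between miR-34a-5p and miR-449a-5p there were 6 edits, and their longest common run was 9 bases. The features of the miR-449 miRNAs could not be picked out of the array table, because the sources used here do not pair the accessions with names. The same holds for the opposite arms of the miR-34 hairpins, for the other p53-responsive miRNAs and for markers of hepatocytes and of other liver cell types. The tissue label was therefore not checked against markers such as the hepatocyte miRNA miR-122.

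The 3 members come from 2 loci. In GRCm38.p6, miR-34a-5p lies at chr4:150068473-150068494 on the plus strand, and its hairpin overlaps no other gene in the RefSeq gene table. The nearest coding genes on either side are H6pd and Gpr157. The Mir34a hairpin is shown because this member carries the difference described below, with the mature miR-34a-5p in capitals.
Mir34a hairpin: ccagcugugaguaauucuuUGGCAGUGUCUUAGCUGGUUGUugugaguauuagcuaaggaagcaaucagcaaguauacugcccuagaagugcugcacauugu
The mature miR-34b-5p lies at chr9:51103610-51103632 on the minus strand. The Mir34b and Mir34c hairpins follow each other on that strand with 451 bases between them, and both overlap the annotated spans of Hoatz and Btg4. As background, miR-34b and miR-34c are made from 1 primary transcript, whereas miR-34a has a transcript of its own.

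All 3 members had a value on both arrays, so none is missing. In the floxed control the intensity was 8.99 for miR-34a-5p, 1.50 for miR-34b-5p and 2.41 for miR-34c-5p. On the liver-null array it was 53.9 for miR-34a-5p, 1.32 for miR-34b-5p and 1.87 for miR-34c-5p. As deposited, miR-34a-5p alone of the 3 was brighter on the liver-null array and the other two were slightly dimmer, although the sign of miR-34b-5p turned with quantile normalization and loess centring. How the signal of each feature relates to the amount of its miRNA was not given in the sources used here. These figures therefore do not rank the members by abundance.

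**Figure D1:**
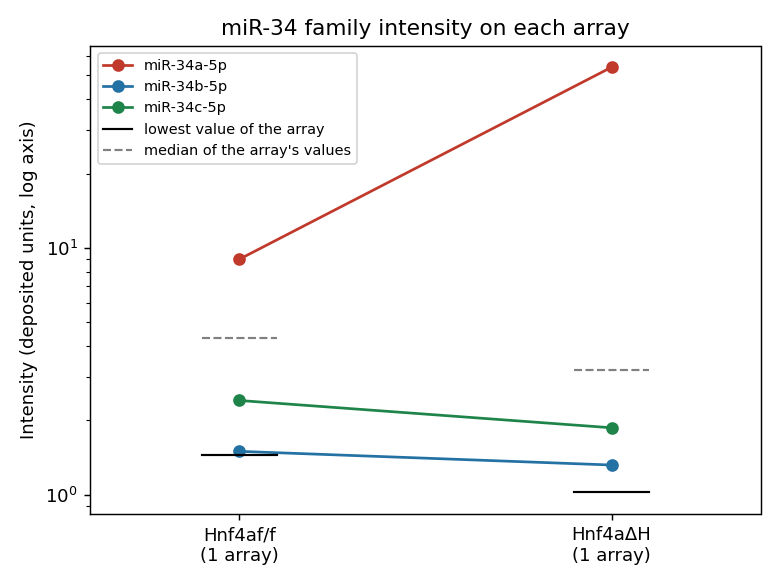
Deposited intensity of the 3 miR-34 miRNAs (log axis) on the Hnf4af/f and the Hnf4aΔH array, with 1 point per array. The solid bars mark the lowest value of each array (1.45 and 1.02) and the dashed bars the median of its values (4.33 and 3.20). miR-34a-5p goes from 8.99 to 53.9, while miR-34b-5p and miR-34c-5p lie below the median on both arrays.

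The intensity of miR-34a-5p, the member with a transcript of its own, was 5.99 times as high in the liver-null liver as in the control. On the log2(intensity + 1) scale its level was 3.32 for the control and 5.78 for the liver-null sample. The difference, liver-null minus control, was 2.46. Ranked from the brightest, it stood at 105 among the 299 values of the control array and at 52 among the 340 values of the liver-null array. In other terms, 64.9% of the control values and 84.7% of the liver-null values were dimmer. Of the dimmer liver-null values, 61 lay below every control value, so these 2 percentages rest on unlike ranges. The share of miR-34a-5p in all intensity given went from 0.0312% in the control to 0.190% in the liver-null sample. Whole liver RNA was measured, so a change in the amount per cell and a change in the share of cells that express miR-34a cannot be told apart.

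miR-34a-5p had the highest difference of all 258 features with a value on both arrays. The next highest difference was 1.71, a gap of 0.75. Counted on the log2(intensity + 1) scale, 17 (6.59%) of the 258 features were higher on the liver-null array by 2-fold or more. By the same measure, 14 (5.43%) were lower by 2-fold or more. With median centring these counts became 9 and 20, which took the higher share from 54.8% to 31.0%. Quantile normalization gave 15 and 15, a higher share of 50.0%, and loess centring gave 10 and 15, a higher share of 40.0%. At 4-fold, miR-34a-5p was the 1 feature that was higher (0.388% of the 258), against 4 that were lower (1.55%). Without a pseudocount, 2 features were at least 4-fold higher, and the 2-fold counts became 19 and 24, a higher share of 44.2%. These counts are a background for reading the member's size of change, which itself led to its choice.

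The middle of the distribution lay close to 0. The median of all 258 differences was -0.062, with the 25th percentile at -0.33 and the 75th at 0.36. The liver-null array exceeded the control array by 0.15 in the median level of the shared features, and relative to that shift the difference of miR-34a-5p was 2.31. When the shared features were divided into quartiles by mean level, miR-34a-5p fell in the second brightest, of 64 features. The median difference there was 0.30, above that of the whole table, and the differences of the other features ended at 1.48.

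**Figure D2:**
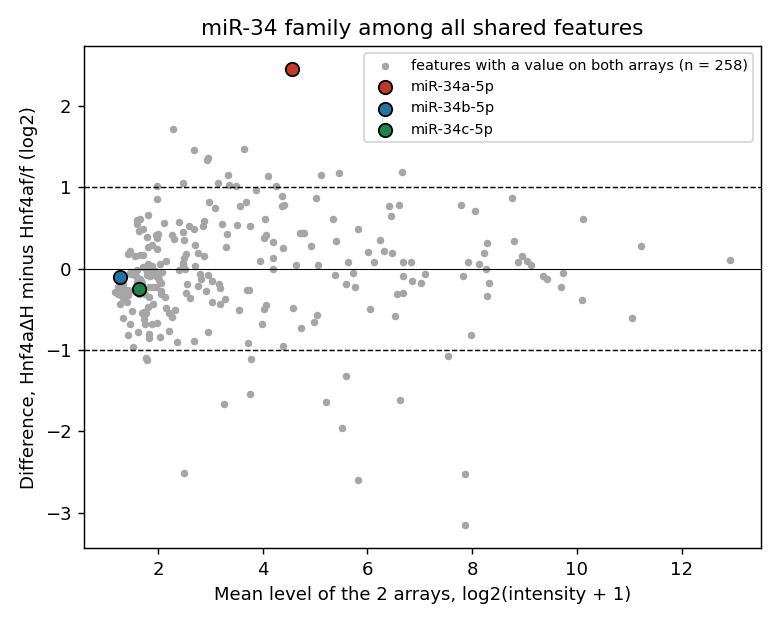
Difference between the arrays (log2, Hnf4aΔH minus Hnf4af/f) against the mean log2(intensity + 1) of the 2 arrays, for the 258 features with a value on both, 1 point per feature. The dashed lines mark 2-fold. miR-34a-5p stands above all other points at 2.46, whereas miR-34b-5p and miR-34c-5p lie at the dim end at -0.11 and -0.25. The sign of miR-34b-5p turned with quantile normalization and loess centring.

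The 2 members of the chromosome 9 locus lay below the median of the values on both arrays, and miR-34b-5p lay close to the control array's lowest value. For miR-34b-5p the control intensity of 1.50 stood just above the lowest value of that array, 1.45, and 6 of the 299 control values were dimmer. Its liver-null intensity of 1.32 was below every value of the control array, and 61 liver-null values lay in that range. A liver-null signal of this size thus falls where the control array gives no value at all. The log2 difference of miR-34b-5p was -0.11, rank 143 of 258 from the highest, and it turned to 0.15 with quantile normalization and 0.17 with loess centring. No direction can therefore be given for this member.

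For miR-34c-5p, 84 of the 299 control values and 95 of the 340 liver-null values were dimmer, which is 28.1% and 27.9%. Its place among the values given was thus nearly equal. However, 61 of those 95 dimmer liver-null values lay below every control value, so the 2 shares rest on unlike ranges. The log2 difference was -0.25, rank 174 of 258, and the control intensity was 1.29 times the liver-null intensity. The difference was below 0 under all 8 settings computed, between -0.40 and -0.043, and within 2-fold under each. A changed pseudocount or the common lowest value could not turn this sign. Quantile normalization and loess centring, which could, left it at -0.063 and -0.072. Both dim members fell in the dimmest quartile of the shared features, 65 in all. The median difference of that quartile was -0.23, with the 25th percentile at -0.36 and the 75th at -0.035. Both members therefore lay within the middle range of features of their own brightness.

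Of the 3 members, 1 differed by 2-fold or more, being higher on the liver-null array, 0 were lower by that much and 2 lay within 2-fold. Over all 258 features, 31 (12.0%) differed by 2-fold or more in either direction on the log2(intensity + 1) scale, and 227 lay within it. Without a pseudocount, 19 features were higher and 24 lower by 2-fold or more. On the log2(intensity + 1) scale, the median difference of the members was -0.11 and that of all features -0.062. How far probes for related miRNAs bind each other's targets was not tested.

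miR-34a-5p stayed at the top under the settings computed, but only some of them could have moved it. Its difference ran from 1.48 with a pseudocount of 16 to 2.58 with no pseudocount, and it ranked 1 of 258 under each of the 8. Centring on a median or other percentile shifts all differences alike, and the common lowest value changes only dim liver-null values. These settings could not change the order at the top, so they are no check of it. Quantile normalization, loess centring and a changed pseudocount could have done so. The gap to the next feature was 0.70 with quantile normalization and 0.52 with loess centring. It was 0.45 with a pseudocount of 16 and 0.37 with no pseudocount, against 0.75 under the main setting. Because the member was known beforehand to have the most extreme difference, this order is no sign of repeatability.

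**Figure D3:**
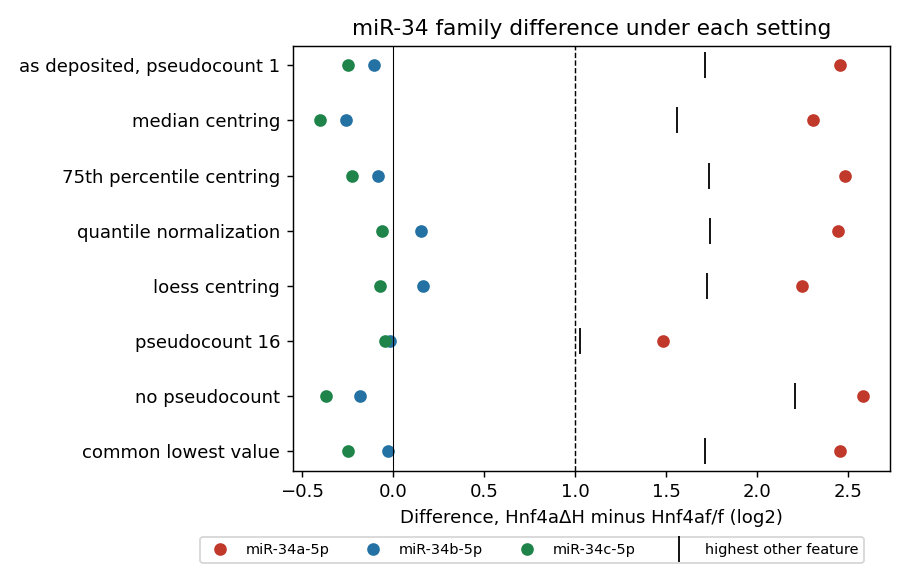
Difference between the arrays (log2, Hnf4aΔH minus Hnf4af/f) of the 3 miR-34 miRNAs under 8 ways of processing the same 2 arrays, 1 point per member and setting. The black ticks mark the highest difference among the other features, the solid line 0 and the dashed line 2-fold. miR-34a-5p lies between 1.48 and 2.58, to the right of each tick, miR-34c-5p stays below 0, and miR-34b-5p lies above 0 with quantile normalization and loess centring.

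Likeness to a member was measured as the distance between features on the plane of their 2 log2 levels, over the 2 arrays. These distances use the same values by which the members were chosen and are smaller where features crowd together at the dim end, so they are a description only. The feature nearest to miR-34a-5p, MIMAT0004536, lay 1.10 away, with intensities of 12.4 and 26.1 and a log2 difference of 1.01. MIMAT0004236 lay 0.060 from miR-34b-5p, with intensities of 1.52 and 1.23, and MIMAT0004664 lay 0.042 from miR-34c-5p, with intensities of 2.33 and 1.91. In the order of differences, the neighbours of miR-34b-5p stood at -0.10 and -0.12 and those of miR-34c-5p at -0.24 and -0.26.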

How the data were processed

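Liver total RNA was hybridised to 2 miRNA arrays, 1 per genotype. Per the labels' protocols it was labelled with the red dye Hy5 (entered as Cy5 in the dye field) by a miRCURY LNA kit, 1 channel per array. The authors deposited a table of intensity values on a linear scale, with no value for 311 control and 270 liver-null features. The array design, background correction, filter, normalization and the meaning of a missing value were not given in the sources used here. Missing values were not replaced.

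Differences are log2(intensity + 1), liver-null minus control, which understates changes of dim features. No test, p-value or interval was possible with 1 array per group, and the number of arrays limits the precision. Alternatives were centring on the median or the 75th percentile, quantile normalization, loess centring (span 0.4), a pseudocount of 16, no pseudocount and the features at or above the median mean level alone. A common lowest value was added after seeing the data. The code was tested on simulated data. The members and lists were chosen with earlier results of these data known. Besides the members, features named are the one nearest to each member. The other miRNAs and cell type markers listed for naming could not be matched to accessions. Sequences are RefSeq's, GRCm38.p6. Computation used numpy 2.4.6, pandas 2.3.3 and statsmodels 0.14.6 under Python 3.11.15, with figures by matplotlib 3.10.9.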

Additional observations from a re-analysis of the deposited data

How the results depend on the processing

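No paired analysis was possible because a single array stands for each genotype, so none could be left out. The differences of miR-34a-5p, miR-34b-5p and miR-34c-5p, in this order, were 2.31, -0.26 and -0.40 with median centring and 2.48, -0.084 and -0.23 after centring on the 75th percentile. Values of 2.44, 0.15 and -0.063 came with quantile normalization and 2.24, 0.17 and -0.072 with loess centring. A pseudocount of 16, which by construction shrinks each difference, gave 1.48, -0.015 and -0.043, and no pseudocount gave 2.58, -0.18 and -0.37. A common lowest value moved miR-34b-5p to -0.026 and left the other two members at 2.46 and -0.25. The sign of miR-34b-5p thus turned under 2 of the 7 alternatives, and the cause was not tested. A changed pseudocount or the common lowest value could not turn it. Of all shared features, 17 were at least 2-fold higher. This count became 9 with median centring, 10 with loess centring and 2 with a pseudocount of 16. The 14 at least 2-fold lower became 7 with a pseudocount of 16 and 24 with no pseudocount. The remaining counts over all shared features stayed within 1.5 times. Restricting to the features at or above the median mean level gave 13 and 11. That setting covers fewer features, so its counts cannot be set against the 17 and 14. The nearness of miR-34b-5p to the lowest control value limits what its difference can show.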
